A study of Homo sapiens with 6 samples.

Results

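A549 cells, a human lung adenocarcinoma line, were compared after 1 h at 41.5 °C and after no heating. Of the 6 arrays, 4 belong to this comparison. At 37 °C they were the untreated control and cells given 3 Gy of X-rays (IR), and at 41.5 °C they were heated cells (HT 41.5) and cells heated and then irradiated at once with the same dose (IR_HT 41.5). Heated cells were returned to 37 °C for 3 h before harvest, as were irradiated cells, and the recovery time of the combined treatment was not given in the sources used here. Further arrays, heated at 44 °C with and without the same dose, entered the model and are cited where a response differed between the temperatures. Each group was 1 array of total RNA from 1 cell line, so the spread between arrays of a temperature includes the radiation pairing but no repeat of any treatment, and nothing states that separate cultures were used. Genes were represented by the platform feature with the highest mean level, and the 4 arrays were paired by radiation dose: HT 41.5 minus control, and IR_HT 41.5 minus IR.

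Cells meet a rise in temperature with the heat shock response, in which unfolded proteins release the transcription factor HSF1 to bind heat shock elements, inverted repeats of the unit nGAAn, ahead of chaperone genes. HSP70 chaperones bind exposed hydrophobic stretches of client proteins, co-chaperones of the BAG and J-domain families steer their cycle, HSP110 proteins exchange their nucleotide, and small heat shock proteins hold unfolding clients. Heat also acts through stress-activated kinases on AP-1, a dimer of JUN and FOS family proteins, and temperatures near fever range are known to affect NF-kappaB signalling, which drives many chemokine genes.

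The deposited values were log2 signals of 53617 features, of which 16098 (30.0%) carried a gene symbol, and these gave 14884 genes. Median log2 levels over all features were 4.39 to 4.41 on the arrays at 37 °C and 41.5 °C and 4.43 to 4.46 at 44 °C, after a normalization by the authors that brings arrays to a common scale. Of 12 measured lung epithelial and keratin markers, 5 were above the gene median on every array, namely the keratins KRT7, KRT8 and KRT18, the epithelial adhesion molecule EPCAM and LPCAT1, a surfactant lipid enzyme of alveolar type II cells. AGER, an alveolar type I marker, was above it on 5 of 6 arrays, and the surfactant gene SFTPB on 1. The surfactant genes SFTPC and SFTPA1, the lung factor NKX2-1, AQP5 and KRT19 were below it on every array. The summed log2 level of this list was 72.4 to 72.5 at 37 °C and 71.6 to 72.4 at 41.5 °C. Lists for other cell types gave 25.8 to 26.3 against 26.0 to 26.3 for 6 endothelial genes and 16.6 to 17.0 against 16.5 to 16.9 for 3 leukocyte genes. For 3 fibroblast genes the sums were 10.4 to 10.7 against 9.92 to 10.8. In these lists endothelial ESAM and leukocyte CD68 were above the gene median on every array, CLDN5 and THY1 on 4 arrays and CD14 on 3. Their other members were below it on every array, and 0 members of all 4 lists were called.

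A gene was called when its adjusted p in limma was under 0.05 (Benjamini-Hochberg over all 14884 genes, two-sided) and both radiation pairs had the same sign. All 489 genes under the threshold met the sign condition, so it removed no gene. Mild heat left 325 genes higher (2.18% of genes tested) and 164 lower (1.10%), together 489 (3.29%). Counts of calls in the gene lists below are to be read beside these shares. Most of the changes were small: 22 genes rose and 7 fell at least 2-fold, and the median called difference was 0.58 on the log2 scale for rises and -0.57 for falls, against a median of -0.0039 over all genes and a median SE of 0.14. The pairs share no array. HT 41.5 was at least 2-fold above the control for 34 genes (0.228%) and below it for 33 (0.222%), and IR_HT 41.5 was above IR for 69 (0.464%) and below it for 37 (0.249%). Only 14 genes were 2-fold higher in both pairs (0.0941%) and 3 were 2-fold lower in both (0.0202%), with 0 genes 2-fold in opposite directions. Of the genes 2-fold different without radiation, 73.1% had the same sign with it, and of those 2-fold different with radiation 74.5% had the same sign without it, beside 60.6% of all genes. Across genes, which are not independent replicates, the pair differences correlated at Pearson r = 0.336 and Spearman rho = 0.311, and at r = 0.199 with the called genes left out.

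**Figure D1:**
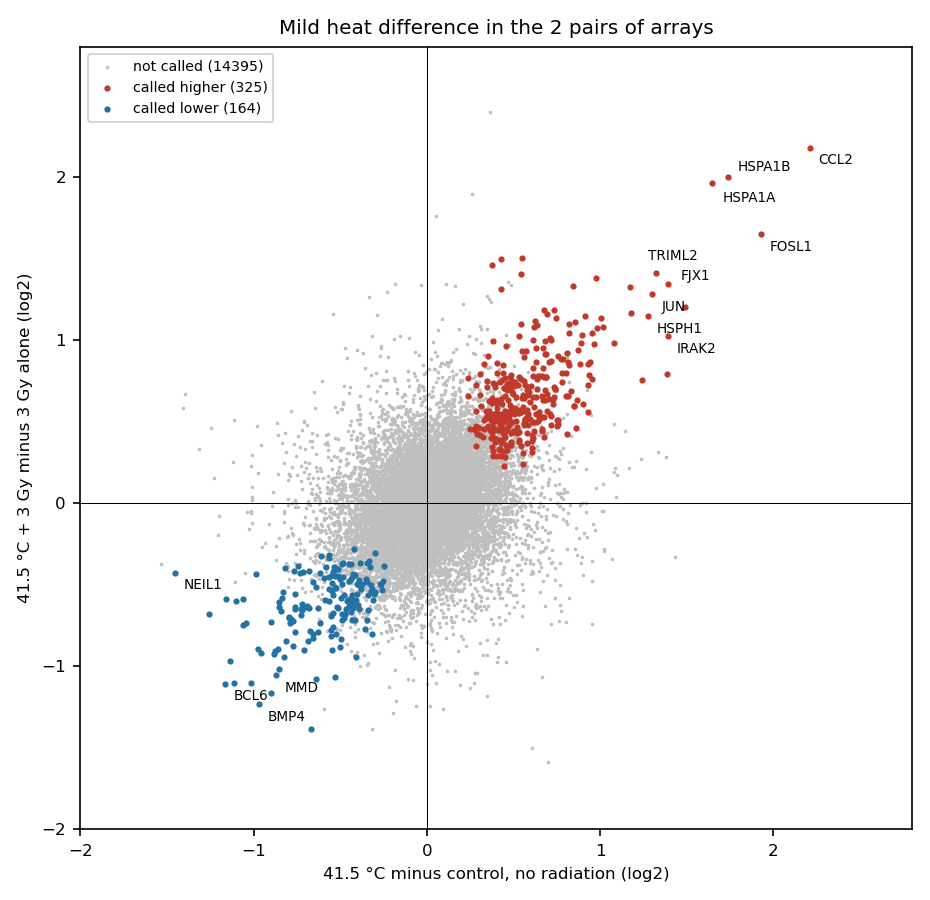
Log2 difference between 41.5 °C and 37 °C for each of 14884 genes without radiation (horizontal axis, HT 41.5 minus control) and with 3 Gy (vertical axis, IR_HT 41.5 minus IR); coloured points are the 325 genes called higher and the 164 called lower. CCL2, HSPA1B, HSPA1A and FOSL1 lie farthest toward the upper right, above 1.6 in both pairs, and BCL6 and RASSF9 below -1.0 in both.

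The genes that did not depend on any single array were few, and were led by a chemokine, chaperones and AP-1 genes. Of the 489 calls, 18 were still made whichever of the 6 arrays was left out. Where the array left out was at 37 °C or 41.5 °C, that temperature kept 1 array, which was assumed to vary as the other arrays do, so these p-values draw on the spread at the other temperatures. The 18 calls were 16 rises (CCL2, HSPA1B, HSPA1A, FOSL1, TRIML2, FJX1, JUN, MICB, HSPH1, IRAK2, TIPARP, THBS1, HSPA4L, SDC4, SRXN1 and HSPB1) and 2 falls (DAPK1 and MMD). Without the irradiated array 19 of the 489 calls were kept, without the control 36, without IR_HT 41.5 179 and without HT 41.5 281, whereas leaving out either 44 °C array kept all 489. With both arrays present at 37 °C and at 41.5 °C, the 44 °C arrays enter only the spread and not the difference between these temperatures. Keeping calls without a 44 °C array is therefore a weaker check. Where an array at 37 °C or 41.5 °C was left out, the 44 °C arrays also entered the difference, through the radiation term. Moderation without an intensity trend, which does not tie a gene's variance to its level, called 9 genes. CCL2, HSPA1B, HSPA1A, FOSL1, FJX1, JUN, MICB and HSPH1 were higher and RASSF9 was lower.

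**Figure D2:**
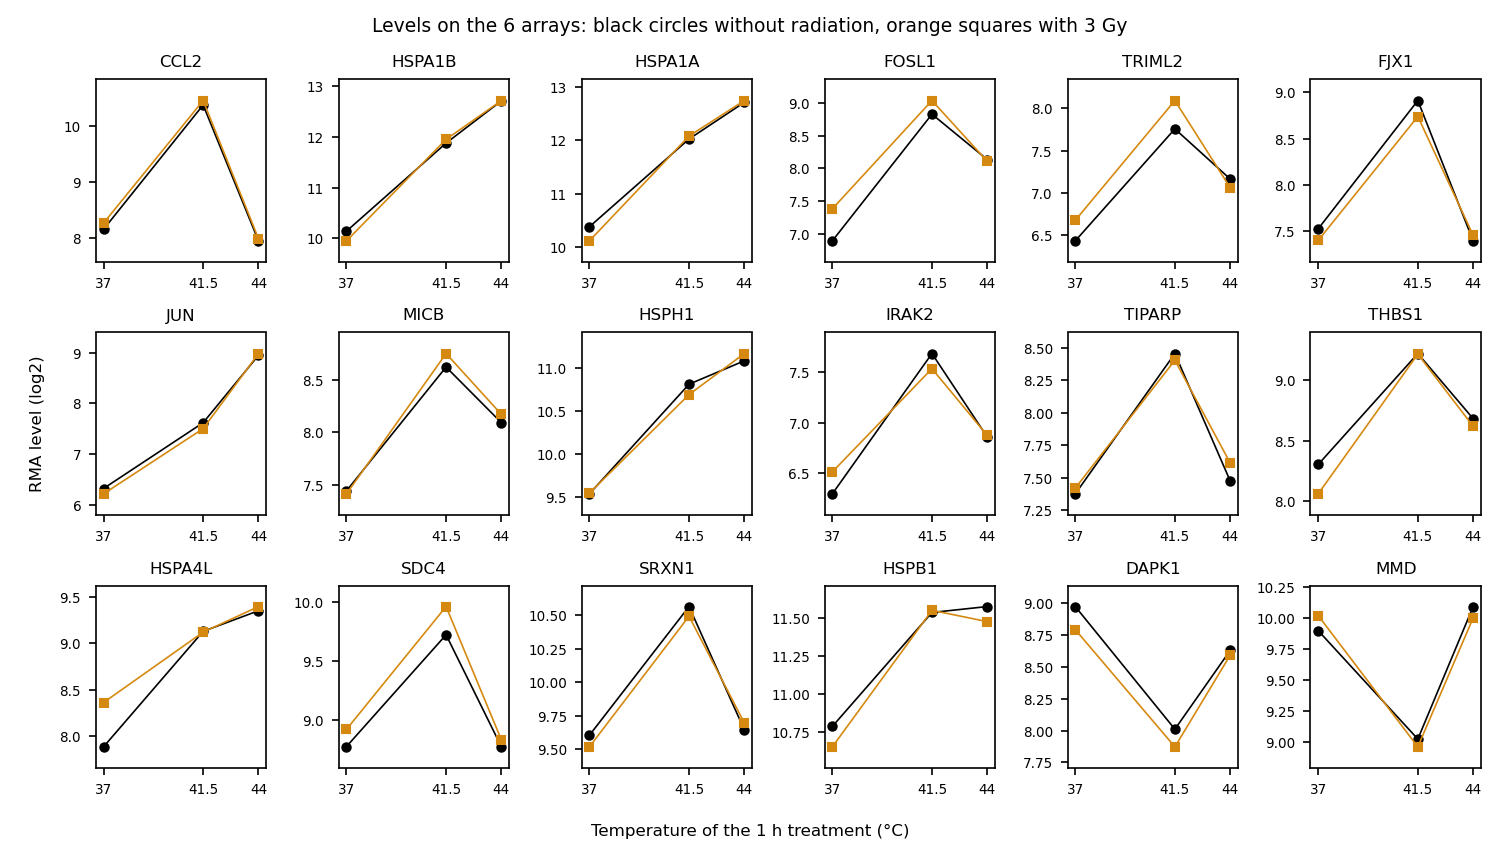
Log2 level on each of the 6 arrays for the 18 genes called without any single array, 1 panel a gene; the horizontal axis is temperature and the symbol marks arrays with and without 3 Gy. In every panel both 41.5 °C arrays lie on the same side of both 37 °C arrays, above them in 16 genes and below them for DAPK1 and MMD. The genes were chosen by this difference, so the separation follows from the choice and is no separate support.

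Among the chaperones the inducible HSP70 and its exchange factors rose, most of all HSPA1B and HSPA1A, which encode the stress-inducible HSP70. HSPA1B had log2 levels of 10.14 (control) and 9.95 (IR) at 37 °C, against 11.88 (HT 41.5) and 11.95 (IR_HT 41.5) after mild heat. That is a 3.65-fold rise, 1.87 ± 0.08 in log2 units (the SE, with 2 arrays at either temperature, adjusted p = 2.11e-06). Every SE here pools a gene's own spread with that of genes at a similar level. HSPA1A went from 10.38 and 10.11 to 12.02 and 12.08 (1.80 ± 0.08, adjusted p = 5.20e-06), and since the transcripts of the pair are near identical their signals may not be separable. HSPH1, an HSP110 that exchanges the nucleotide of HSP70, was at 9.53 and 9.54 and then at 10.81 and 10.69, a rise of 1.21 ± 0.07 (adjusted p = 4.84e-05). In all 3 genes the groups were separated by more than the spread within either temperature, which the choice of called genes favours.

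HSPA4L, a further HSP110, had levels of 7.89 and 8.36 at 37 °C and of 9.13 and 9.12 at 41.5 °C (1.00 ± 0.11, adjusted p = 0.00173). Its relative HSPA4 rose by 0.43 ± 0.08 (adjusted p = 0.0188). These 5 genes were the calls among 13 measured members of the HSP70 and HSP110 list, which had a median difference of 0.19 and 0 falls. Over all genes 2.18% were called higher and 1.10% lower. HSPA6, an HSP70 with little expression in unstressed cells, differed by 0.18 ± 0.13 (adjusted p = 0.546), and HSPA2 by -0.34 ± 0.08 (adjusted p = 0.0636).

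HSPB1, the small heat shock protein that holds unfolding clients and binds actin, rose from 10.78 and 10.65 to 11.54 and 11.55, by 0.83 ± 0.07 (adjusted p = 2.60e-04). BAG3, which hands HSP70 clients to autophagy, went from 7.20 and 6.85 to 8.04 and 8.18 (1.09 ± 0.12, adjusted p = 0.00138). They were the calls among 9 small heat shock and BAG genes, whose median was 0.16. In the same list HSPB8, the partner of BAG3, differed by 0.37 without radiation and by 1.24 with it, and its fitted 0.80 ± 0.21 did not pass (adjusted p = 0.0683). BAG4 differed by -0.41 ± 0.10 (adjusted p = 0.0681).

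Around HSP90, PPID, a cyclophilin co-chaperone, rose by 0.54 ± 0.08 (adjusted p = 0.00947) as the only call of 9 measured genes, with a list median of 0.14. PTGES3, the p23 co-chaperone, differed by 0.33 ± 0.08 (adjusted p = 0.0514), STIP1, which bridges HSP70 and HSP90, by 0.22 ± 0.09 (adjusted p = 0.210) and CHORDC1 by -0.35 ± 0.09 (adjusted p = 0.0805). HSPD1, the mitochondrial chaperonin, rose by 0.40 ± 0.08 (adjusted p = 0.0259). The transcripts of the heat shock factors themselves did not pass: HSF1 differed by 0.03, HSF4 by -0.14, HSF5 by -0.35 and their binding protein HSBP1 by -0.05, with adjusted p from 0.393 to 0.918. Of these 9 chaperone calls, HSPA4, PPID and HSPD1 were lost without the control (adjusted p from 0.148 to 0.255), the same genes and BAG3 without the irradiated array (0.0630 to 0.339), and HSPA4 and HSPD1 without HT 41.5 (0.0891 to 0.113).

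Mild heat raised a selected set of early response genes. FOSL1, the FRA1 subunit of AP-1, went from 6.90 and 7.38 to 8.83 and 9.03, a rise of 3.46-fold or 1.79 ± 0.11 on the log2 scale (adjusted p = 5.55e-05). JUN, its partner, went from 6.32 and 6.22 to 7.62 and 7.50 (1.29 ± 0.09, adjusted p = 6.47e-05). JUNB rose by 0.49 ± 0.10 (adjusted p = 0.0252), while JUND, which restrains AP-1 activity in many settings, fell from 7.34 and 7.51 to 7.00 and 6.86 (-0.50 ± 0.10, adjusted p = 0.0232). Of 10 AP-1 genes 3 therefore rose and 1 fell, with a median of 0.24, beside 2.18% higher and 1.10% lower over all genes. FOS differed by -0.30 ± 0.12 (adjusted p = 0.234), FOSB by 0.08 ± 0.11 (adjusted p = 0.799) and ATF3 by 0.14 ± 0.18 (adjusted p = 0.777).

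Among 14 other immediate early genes 4 rose and 0 fell, with a median of 0.34, beside 2.18% higher and 1.10% lower over all genes. KLF10, a zinc finger repressor induced by TGF-beta, rose by 0.74 ± 0.12 (adjusted p = 0.00956). IER2 rose by 0.59 ± 0.10 (adjusted p = 0.0156), SRF, the transcription factor of the serum response, by 0.55 ± 0.10 (adjusted p = 0.0136), and IER3, which acts on survival, by 0.55 ± 0.07 (adjusted p = 0.00453). EGR1 differed by 0.04 ± 0.09 (adjusted p = 0.888) and MYC by 0.38 ± 0.12 (adjusted p = 0.137). The list of 13 MAP kinase feedback inhibitors had 0 rises and 1 fall, with a median of -0.05: DUSP10, a phosphatase of p38 and JNK, went from 5.89 and 5.74 down to 4.78 and 5.14 (-0.85 ± 0.14, adjusted p = 0.00982). DUSP6, the ERK phosphatase, differed by -0.40 ± 0.11 (adjusted p = 0.0824) and SPRY4 by 0.43 ± 0.12 (adjusted p = 0.0842). FOSL1 and JUN were called without any 1 array, but the other 7 early genes were lost without the irradiated array (adjusted p from 0.136 to 0.368), all of these except KLF10 without the control (0.0846 to 0.185), JUNB, JUND, IER2 and SRF without IR_HT 41.5 (0.0673 to 0.161), and JUNB without HT 41.5 (0.0876).

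Targets of YAP and SRF, which link tension of the actin cytoskeleton to transcription, had the highest median of the lists with several genes, 0.47. It was 0.31 in the pair without radiation and 0.55 in the pair with it. There were 6 rises and 0 falls among 11 genes, beside 2.18% higher and 1.10% lower over all genes. All 11 values were positive, beside 7334 of all 14884 genes. The lists were chosen with earlier results of these data known, so the ranking is a description. ANKRD1, a muscle ankyrin repeat protein and classic YAP target, went from 7.42 and 7.28 to 8.11 and 8.19 (0.80 ± 0.09, adjusted p = 0.00214). FHL2, a LIM domain co-activator, rose by 0.82 ± 0.15 (adjusted p = 0.0196), AJUBA, a LIM protein that inhibits the LATS kinases, by 0.66 ± 0.09 (adjusted p = 0.00571), and VCL, the adhesion protein vinculin, by 0.54 ± 0.07 (adjusted p = 0.00374). CNN2, a calponin, rose by 0.48 ± 0.09 (adjusted p = 0.0196), although its second feature on the array differed by 0.01, and TPM1, a tropomyosin, rose by 0.47 ± 0.09 (adjusted p = 0.0178). The level of CCN2, the connective tissue growth factor, differed by 0.22 ± 0.08 (adjusted p = 0.176) and that of AMOTL1 by 0.01 ± 0.09 (adjusted p = 0.986).

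THBS1, the matrix glycoprotein thrombospondin, went from 8.30 and 8.06 to 9.22 and 9.21, a rise of 1.03 ± 0.08 (adjusted p = 2.48e-04). Of the 9 EGF family ligands and receptors, 3 ligands rose and 0 genes fell, with a median of 0.24. The shares over all genes were 2.18% higher and 1.10% lower. EREG, epiregulin, went from 8.80 and 8.58 to 9.53 and 9.28 (0.72 ± 0.09, adjusted p = 0.00376). HBEGF rose by 0.68 ± 0.12 (adjusted p = 0.0151) and NRG1, a ligand of ERBB3 and ERBB4, by 0.45 ± 0.10 (adjusted p = 0.0397), while the receptors EGFR (0.25, adjusted p = 0.117) and ERBB3 (-0.33, adjusted p = 0.330) did not pass. CCND1, the cyclin that starts G1 progression, rose from 8.36 and 8.20 to 8.85 and 8.93 (0.61 ± 0.08, adjusted p = 0.00520). Of these 11 calls only THBS1 was kept without the irradiated array, the others then having adjusted p from 0.149 to 0.405. THBS1 and ANKRD1 were kept without the control (0.0644 to 0.236 for the rest), HBEGF, NRG1, FHL2, CNN2 and TPM1 were lost without IR_HT 41.5 (0.0774 to 0.311), and TPM1 without HT 41.5 (0.0547). NRG1 was also lost when the arrays were quantile-normalized once more (adjusted p = 0.0574).

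The chemokine CCL2, which draws in monocytes, rose more than any other gene: the 37 °C arrays read 8.15 and 8.26 and the 41.5 °C arrays 10.37 and 10.45, 4.58-fold or 2.20 ± 0.07 on the log2 scale (adjusted p = 5.28e-07). CXCL8, which attracts neutrophils, went from 3.99 and 3.98 to 5.38 and 4.77, a wider spread between heated arrays, for a rise of 1.09 ± 0.18 (adjusted p = 0.00993). Its signal was dim, since the gene medians of these arrays were 5.38 to 5.40 and only HT 41.5 reached its median. CCL20, the ligand of CCR6, went from 6.49 and 6.15 to 7.44 and 6.92 (0.86 ± 0.11, adjusted p = 0.00332). They were the 3 rises among 26 measured chemokines, with 0 falls and a median of 0.07. Over all genes 2.18% were called higher and 1.10% lower. CXCL2 differed by 0.43 in both pairs without passing (adjusted p = 0.156), and CCL7, which lies beside CCL2, by 0.08 and 0.84 (adjusted p = 0.394).

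The NF-kappaB list had 3 rises and 0 falls among 13 genes, beside 2.18% higher and 1.10% lower over all genes. Its median was 0.32, with positive values in 12, beside 7334 of all 14884 genes. NFKB2, which encodes the precursor of p52, rose from 6.63 and 6.53 to 7.32 and 7.45 (0.80 ± 0.10, adjusted p = 0.00403). NFKB1, the precursor of p50, rose by 0.59 ± 0.09 (adjusted p = 0.00956), and the adhesion molecule ICAM1 by 0.67 ± 0.13 (adjusted p = 0.0207). The other subunits RELA (0.33, adjusted p = 0.117) and RELB (0.33, adjusted p = 0.215) did not pass. BCL2A1, a BCL2 family survival protein, went from 6.10 and 6.36 to 7.28 and 7.53, a rise of 1.17 ± 0.12 (adjusted p = 0.00110).

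Upstream of NF-kappaB, IRAK2, a kinase of the interleukin-1 and Toll-like receptor complex, went from 6.30 and 6.51 to 7.69 and 7.54 (1.21 ± 0.11, adjusted p = 4.41e-04), the only call of 16 genes in that list, whose median was 0.10. IL11, an IL-6 family cytokine, rose from 6.16 and 5.98 to 7.05 and 6.84 (0.87 ± 0.10, adjusted p = 0.00183), and IL1RL1, a receptor of the IL-1 family, from 4.24 and 4.41 to 5.05 and 5.51 (0.96 ± 0.16, adjusted p = 0.0116). These were the 2 rises among 16 IL-1 and IL-6 family genes, with a median of 0.13. CCL2 and IRAK2 were called without any 1 array. The other 8 inflammatory calls were lost without the irradiated array (adjusted p from 0.0630 to 0.234) and without the control (0.0644 to 0.240), ICAM1, NFKB1 and IL1RL1 also without IR_HT 41.5 (0.0528 to 0.127), and CXCL8 and ICAM1 without HT 41.5 (0.0573 to 0.0595).

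MICB, a stress ligand that cells show to the NKG2D receptor of natural killer cells, went from 7.45 and 7.42 to 8.62 and 8.75, a rise of 1.25 ± 0.08 (adjusted p = 5.75e-05). MICA, its near relative, rose by 0.46 ± 0.10 (adjusted p = 0.0373). Of the other 5 measured NKG2D ligands none was called: ULBP1 differed by 0.25, ULBP2 by -0.37, ULBP3 by 0.08, RAET1E by 0.12 and RAET1L by -0.23, with adjusted p from 0.255 to 0.808. Among 7 targets of NRF2, the regulator of antioxidant genes, 3 rose and 0 fell, with a median of 0.32. The shares over all genes were 2.18% higher and 1.10% lower. SRXN1, which repairs oxidised peroxiredoxins, went from 9.60 and 9.52 to 10.57 and 10.49 (0.97 ± 0.07, adjusted p = 1.44e-04).

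OSGIN1, an oxidative stress growth inhibitor, rose by 0.75 ± 0.11 (adjusted p = 0.00602) and HMOX1, which degrades haem, by 0.62 ± 0.10 (adjusted p = 0.0122). Thioredoxin reductase TXNRD1 differed by 0.32 ± 0.08 (adjusted p = 0.0523). MT1X, which binds zinc and copper, rose by 0.43 ± 0.08 (adjusted p = 0.0175) as the only call of 10 metallothioneins, whose median was -0.10. MICA, OSGIN1, HMOX1 and MT1X were lost without the irradiated array (adjusted p from 0.214 to 0.444), all of these except HMOX1 without the control (0.0673 to 0.221), all except OSGIN1 without IR_HT 41.5 (0.0528 to 0.109), and MICA and MT1X without HT 41.5 (0.0725 to 0.120). MICA was also lost without the radiation term (adjusted p = 0.0596).

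Several large rises were in no list. TRIML2, a tripartite motif protein, went from 6.43 and 6.68 to 7.76 and 8.09 (1.37 ± 0.11, adjusted p = 2.60e-04). FJX1, a secreted relative of the fly four-jointed kinase, went from 7.52 and 7.40 to 8.91 and 8.74 (1.37 ± 0.09, adjusted p = 5.75e-05). TIPARP, a mono-ADP-ribosyltransferase induced by the aryl hydrocarbon receptor, went from 7.37 and 7.42 to 8.46 and 8.40 (1.03 ± 0.09, adjusted p = 2.60e-04). SDC4, the heparan sulfate proteoglycan of focal adhesions, went from 8.77 and 8.92 to 9.72 and 9.96 (1.00 ± 0.08, adjusted p = 1.82e-04). For these 4 genes the 41.5 °C arrays lay clear of the 37 °C arrays, which their choice as called genes favours.

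NAV3, a microtubule-binding protein, rose by 1.35 ± 0.13 (adjusted p = 6.89e-04), PDCL3, a phosducin-like partner of the CCT chaperonin, by 1.07 ± 0.10 (adjusted p = 5.07e-04) and ALOXE3, a lipoxygenase of the epidermis, by 1.05 ± 0.10 (adjusted p = 7.54e-04). SNAR-H, a small non-coding RNA that binds NF90, rose by 1.18 ± 0.12 (adjusted p = 0.00118), and ZNF836, a zinc finger gene, by 1.03 ± 0.18 (adjusted p = 0.0148) from levels of 3.34 and 2.84, near the low end of the arrays. These 5 calls were lost without the irradiated array (adjusted p from 0.0630 to 0.269), NAV3 and ZNF836 also without the control (0.0523 to 0.109) and ZNF836 without HT 41.5 (0.0602).

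Promoters are shown for 5 genes that rose, because motifs of heat shock factor, AP-1 or NF-kappaB lay in them. RefSeq promoters on GRCh38.p14, from 250 bases before to 50 after the start, were matched for 250 of the genes called higher, 124 of those called lower and 10749 of all genes tested. The motifs searched on both strands were a heat shock element of 3 units (GAA, TTC and GAA, or TTC, GAA and TTC, with any 2 bases between units), the AP-1 site TGANTCA and the kappaB consensus, with 2 neighbouring units of the heat shock element (which lie within the longer one) as an alternative. Sequences read 5′ to 3′ on the gene's strand, with every match to any of these motifs in capitals.
HSPA1B promoter, chr6:31827488-31827787, plus strand: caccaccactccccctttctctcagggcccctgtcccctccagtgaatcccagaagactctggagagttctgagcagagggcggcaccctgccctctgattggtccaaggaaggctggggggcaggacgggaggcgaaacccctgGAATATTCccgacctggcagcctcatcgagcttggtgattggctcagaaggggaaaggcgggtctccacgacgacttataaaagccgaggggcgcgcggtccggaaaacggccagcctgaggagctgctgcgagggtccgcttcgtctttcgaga
FBXW10 promoter, chr17:18743804-18744103, plus strand: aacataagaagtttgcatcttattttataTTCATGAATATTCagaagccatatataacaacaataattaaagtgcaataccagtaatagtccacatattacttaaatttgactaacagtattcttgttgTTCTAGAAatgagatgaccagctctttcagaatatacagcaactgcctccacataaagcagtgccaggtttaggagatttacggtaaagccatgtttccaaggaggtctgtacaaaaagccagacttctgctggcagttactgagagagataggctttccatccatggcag
FJX1 promoter, chr11:35618210-35618509, plus strand: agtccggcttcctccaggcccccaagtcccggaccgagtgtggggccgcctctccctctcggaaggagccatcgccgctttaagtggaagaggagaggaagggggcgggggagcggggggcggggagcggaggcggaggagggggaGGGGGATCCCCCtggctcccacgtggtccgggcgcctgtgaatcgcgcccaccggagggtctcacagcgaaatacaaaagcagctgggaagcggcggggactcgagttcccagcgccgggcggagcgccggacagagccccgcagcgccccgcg
SDC4 promoter, chr20:45348375-45348674, minus strand: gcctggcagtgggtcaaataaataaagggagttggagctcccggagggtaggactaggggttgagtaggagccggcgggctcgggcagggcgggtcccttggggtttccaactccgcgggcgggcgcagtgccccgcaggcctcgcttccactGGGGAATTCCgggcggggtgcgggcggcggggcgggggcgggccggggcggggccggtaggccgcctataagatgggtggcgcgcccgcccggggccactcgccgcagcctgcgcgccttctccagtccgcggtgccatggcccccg
TRIML2 promoter, chr4:188109554-188109853, minus strand: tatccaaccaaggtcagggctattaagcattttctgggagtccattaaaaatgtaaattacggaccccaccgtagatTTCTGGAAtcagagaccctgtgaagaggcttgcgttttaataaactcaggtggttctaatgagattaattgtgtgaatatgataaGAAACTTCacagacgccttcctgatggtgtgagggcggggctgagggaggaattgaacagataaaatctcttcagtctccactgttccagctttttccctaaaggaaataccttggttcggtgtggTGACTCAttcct

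HSPA1B, chosen for printing after its values were seen, held 1 match of 2 heat shock units (GAATATTC, 105 bases before the start) and 0 of 3 units. FBXW10, an F-box gene that rose from 4.91 and 4.74 to 5.80 and 5.72 (0.94 ± 0.11, adjusted p = 0.00221), held a match of 3 units 221 bases before its start. A near copy, FBXW10B, differed by 0.56 (adjusted p = 0.0839), and signals of the pair may not be separable. GAS5, a non-coding host of small nucleolar RNAs that rose by 0.47 ± 0.09 (adjusted p = 0.0178), held the other match of 3 units among genes called higher. FJX1 held 3 overlapping kappaB matches within the capitals, SDC4 held 1, 97 bases before its start, and TRIML2 held an AP-1 match 38 bases after the start and 2 matches of 2 heat shock units.

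By share, a heat shock element of 3 units was in 0.800% of promoters of genes called higher, 0.806% of those called lower and 0.465% of all, and 2 units were in 14.8%, 8.06% and 11.2%. AP-1 matches were in 9.60%, 1.61% and 5.92%, and kappaB matches in 9.20%, 6.45% and 6.48%. These shares describe letters in a window of 300 bases and were not tested.

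Fewer genes fell than rose, and the 3 largest falls were those of BCL6, RASSF9 and BMP4. BCL6, a transcriptional repressor, went from 6.18 and 5.90 to 5.01 and 4.79 (-1.14 ± 0.12, adjusted p = 0.00141). RASSF9, a RAS association domain protein, went from 5.74 and 5.60 to 4.63 and 4.50 (-1.11 ± 0.12, adjusted p = 0.00183). BMP4, a bone morphogenetic protein, went from 6.59 and 6.36 to 5.62 and 5.13 (-1.10 ± 0.17, adjusted p = 0.00735). In each of these genes both heated arrays were below both unheated ones by more than the distance between arrays of a temperature. Selection as the largest falls favours such a separation.

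DAPK1, a death-associated kinase, went from 8.97 and 8.79 to 8.01 and 7.87 (-0.94 ± 0.08, adjusted p = 2.60e-04), and MMD, a membrane protein named for monocyte to macrophage differentiation, from 9.90 and 10.02 to 9.02 and 8.96 (-0.96 ± 0.08, adjusted p = 2.48e-04). They were the falls kept without any 1 array. PHF21A, a histone reader of the LSD1 complex, fell by 1.05 ± 0.10 on the log2 scale (adjusted p = 5.72e-04), HILPDA, which coats lipid droplets, by 1.03 ± 0.12 (adjusted p = 0.00197) and SHISA3, an antagonist of WNT and FGF receptors, by 0.90 ± 0.09 (adjusted p = 7.41e-04). NEIL1, a DNA glycosylase of base excision repair, differed by -1.45 without radiation and by -0.43 with it, and its fitted difference of -0.94 ± 0.21 passed narrowly (adjusted p = 0.0434). It was the only call of 16 base excision repair genes, as BCL6 was of 12 FOXO pathway genes, lists with medians of -0.01 and -0.01.

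Among the 15 largest falls were 3 microRNA genes, whose mature sequences from RefSeq (GRCh38.p14) are shown with the seed, bases 2 to 8, in capitals, because the seed sets which transcripts a microRNA pairs with.
hsa-miR-4277, chr5:1708838-1708858, minus strand: gCAGUUCUgagcacaguacac
hsa-miR-582-3p, chr5:59703630-59703651, minus strand: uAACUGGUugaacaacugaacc
hsa-miR-582-5p, chr5:59703666-59703688, minus strand: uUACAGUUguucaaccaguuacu
hsa-miR-1185-5p, chr14:101044212-101044232, plus strand: aGAGGAUAcccuuuguauguu
hsa-miR-1185-2-3p, chr14:101044250-101044271, plus strand: aUAUACAGggggagacucucau

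No seed was shared between these 5 sequences. MIR1185-2 went from 4.47 and 4.86 to 3.80 and 3.47 (-1.03 ± 0.19, adjusted p = 0.0184), MIR4277 from 4.31 and 4.19 to 3.06 and 3.51 (-0.97 ± 0.19, adjusted p = 0.0245) and MIR582 from 3.74 and 3.42 to 2.76 and 2.52 (-0.94 ± 0.17, adjusted p = 0.0178). All 3 were dim, below the gene median of the arrays, and the array reads precursor transcripts, which need not follow the mature microRNA. Over 1098 microRNA genes 15 were called higher and 4 lower, with a median of 0.01, shares of 1.37% and 0.364% beside 2.18% and 1.10% of all genes. The remaining large falls were the non-coding LINC00173 (-1.06 ± 0.15, adjusted p = 0.00495), whose other features differed by -0.95, -0.12 and -0.24, FAM238B (-0.94 ± 0.20, adjusted p = 0.0332) and ZNF878 (-0.90 ± 0.16, adjusted p = 0.0175).

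Of the 15 largest falls 13 were lost without the control (adjusted p from 0.0501 to 0.395), the exceptions being DAPK1 and MMD. The same genes except PHF21A were lost without the irradiated array (0.0761 to 0.404). MIR1185-2, MIR4277, FAM238B, MIR582 and ZNF878 were also lost without IR_HT 41.5 (0.0534 to 0.135), and MIR4277, NEIL1, FAM238B and MIR582 without HT 41.5 (0.0623 to 0.207). NEIL1 was lost too after a further quantile normalization (0.0563), with robust moderation (0.0586) and without the radiation term (0.0840).

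Smaller falls were found for members of other lists. Of 14 hypoxia and glycolysis genes 4 fell and 1 rose, with a median of -0.12, beside 1.10% lower and 2.18% higher over all genes. Besides HILPDA these were DDIT4, an inhibitor of mTORC1 (-0.52 ± 0.08, adjusted p = 0.00821), and the mitophagy receptors BNIP3 (-0.45 ± 0.08, adjusted p = 0.0136) and BNIP3L (-0.45 ± 0.08, adjusted p = 0.0130), while ADM, the vasodilator adrenomedullin, rose by 0.42 ± 0.09 (adjusted p = 0.0386). DDIT3, the CHOP factor of the integrated stress response, went from 5.26 and 4.74 to 4.49 and 4.19 (-0.66 ± 0.14, adjusted p = 0.0321). With DDIT4, which is in both lists, it made up the 2 falls of that list of 11 genes, whose median was 0.02, while ATF4 (-0.16, adjusted p = 0.453) and TRIB3 (0.37, adjusted p = 0.0685) did not pass.

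GABARAPL1, an ATG8 protein of autophagosomes, fell by 0.53 ± 0.11 (adjusted p = 0.0245), the only call of 12 ubiquitin and autophagy genes. BMAL1, a core clock factor, fell by 0.52 ± 0.11 (adjusted p = 0.0267), the only call of 10 clock genes. In the BMP and TGF-beta list of 15 genes 2 fell and 1 rose: with BMP4 the decoy receptor BAMBI fell by 0.42 ± 0.08 (adjusted p = 0.0218), and the inhibitory SMAD7 rose by 0.60 ± 0.12 (adjusted p = 0.0259). Leaving HILPDA and BMP4 aside, these 9 calls were all lost without the irradiated array (adjusted p from 0.185 to 0.445) and without the control (0.102 to 0.310), and all but DDIT4 without IR_HT 41.5 (0.0709 to 0.250), while DDIT3, BMAL1 and SMAD7 were lost without HT 41.5 (0.0643 to 0.0949). DDIT3 and GABARAPL1 were also lost without the radiation term (adjusted p = 0.0893 and 0.0845).

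Other lists had 0 calls. The unfolded protein response of the endoplasmic reticulum had 0 of 10, with SDF2L1 at 0.20 and CRELD2 at -0.25. The p53 targets had 0 of 12 and a median of 0.06, which was -0.09 in the pair without radiation and 0.18 in the pair with it, and among them TP53I3 differed by 0.55 (adjusted p = 0.0601) and TP53INP1 by -0.53 (adjusted p = 0.323). The plasminogen and matrix protease list had 0 of 7, and 5 housekeeping genes had 0 calls and a median of 0.09, with GAPDH at 0.09. CIRBP, the cold-inducible RNA-binding protein, differed by 0.10 ± 0.10 (adjusted p = 0.676). In the G1/S list CCND1 was the 1 call of 22 genes.

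Of 25 G2/M genes 0 were called, yet 23 had negative fitted differences, beside 7549 of all 14884 genes, and the median was -0.26. It was -0.13 in the pair without radiation and -0.40 in the pair with it, and without IR_HT 41.5 it was -0.05, so the value rested on that array. PTTG1, the securin that guards sister chromatids, differed by -0.22 and -0.85 (adjusted p = 0.127), HMMR, a spindle protein, by -0.26 and -0.80 (adjusted p = 0.200), and CDC20 by 0.15 and 0.07 (adjusted p = 0.714). In such bulk RNA fewer cells in a phase and less RNA per cell cannot be told apart.

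**Figure D3:**
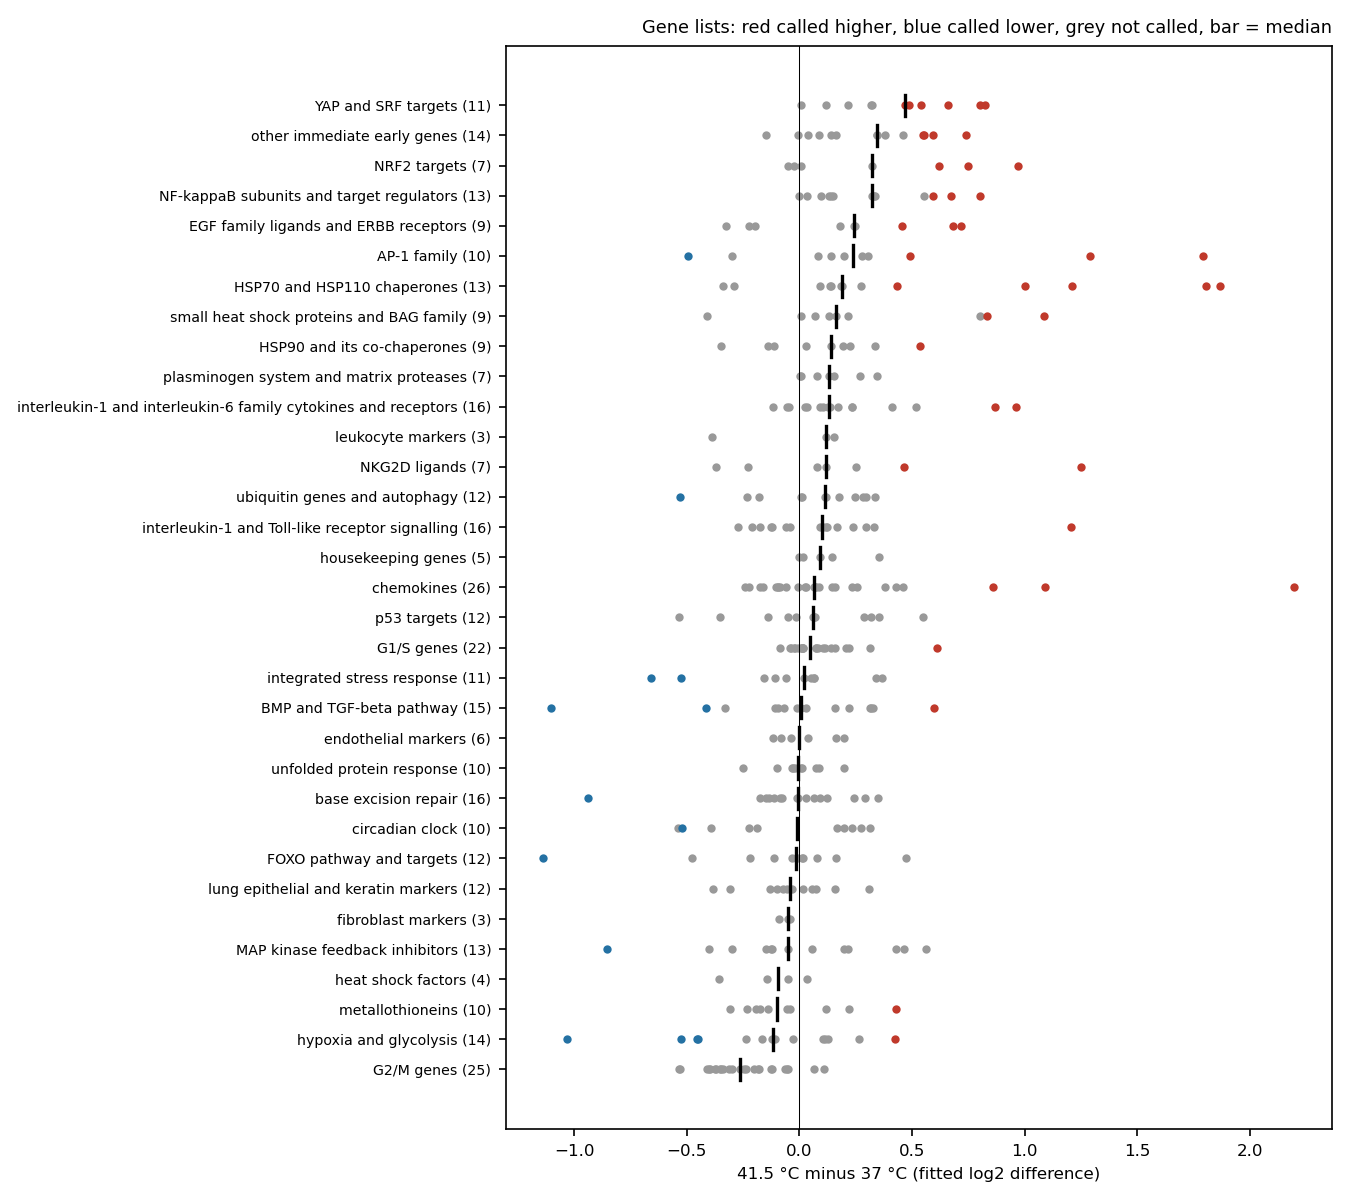
Fitted log2 difference, 41.5 °C minus 37 °C, of every measured gene in each list, with the list's median as a bar and called genes coloured; lists are ordered by their median. The YAP and SRF targets have a median of 0.47 and the G2/M genes one of -0.26, against -0.0039 over all genes. The lists were chosen with earlier results of these data known.

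The response to 41.5 °C was set beside that to 44 °C, a comparison that shares the 37 °C arrays with the first, so the values are given side by side and the difference between the temperatures was tested directly (44 °C minus 41.5 °C, which shares the heated arrays). Against 37 °C, 532 genes were higher (3.57%) and 378 lower (2.54%) at 44 °C, together 910 (6.11%), and against 41.5 °C 729 were higher (4.90%) and 1076 lower (7.23%). Genes were called on the 41.5 °C arrays, which the direct contrast reuses. It therefore leans toward lower values at 44 °C for rises and higher ones for falls. Of 11 growth factor and cytoskeleton calls 8 were lower and 1 higher at 44 °C than at 41.5 °C. For 6 NKG2D and NRF2 calls these counts were 4 and 0, for 9 chaperone calls 0 and 5, and for the 15 largest falls 0 and 7. Of the 10 inflammatory calls, 8 were lower at 44 °C than at 41.5 °C (CCL2, CXCL8, CCL20, IRAK2, NFKB2, ICAM1, NFKB1 and BCL2A1). IL11 (-0.29, adjusted p = 0.0916) and IL1RL1 (-0.34, adjusted p = 0.215) showed no called difference between the temperatures and were also called higher at 44 °C than at 37 °C. IRAK2, MICB and THBS1 were lower at 44 °C than at 41.5 °C but still called higher than at 37 °C. Their differences from 37 °C were 0.46, 0.70 and 0.47 (adjusted p = 0.0318, 5.75e-04 and 0.00826). CCL2 read 7.95 and 7.99 at 44 °C against 8.15 and 8.26 at 37 °C, a difference that did not pass (-0.24, adjusted p = 0.0893). Its direct difference was -2.44 ± 0.07 on the log2 scale (adjusted p = 3.74e-08). CXCL8 differed by -1.17 ± 0.18 between the temperatures (adjusted p = 0.00209), BCL2A1 by -1.51 ± 0.12 (adjusted p = 4.05e-05) and NFKB2 by -0.89 ± 0.10 (adjusted p = 5.11e-04). CCL20 had opposite signs: 0.86 at 41.5 °C and -0.42 at 44 °C (adjusted p = 0.0489), with a direct difference of -1.27 ± 0.11 (adjusted p = 6.05e-05).

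FJX1 (-1.40, adjusted p = 1.03e-05), NAV3 (-1.58, adjusted p = 4.95e-05), SDC4 (-1.04, adjusted p = 2.46e-05) and SRXN1 (-0.86, adjusted p = 5.93e-05) were likewise lower at 44 °C than at 41.5 °C. Against 37 °C their values at 44 °C were -0.04, -0.24, -0.05 and 0.11, of which none passed. FOSL1 rose at both temperatures, by 1.79 at 41.5 °C and by 0.98 at 44 °C, with a direct difference of -0.81 ± 0.11 (adjusted p = 0.00134). Its partner JUN rose more at 44 °C, reading 8.95 and 8.98 there (direct difference 1.40 ± 0.09, adjusted p = 9.16e-06).

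Among the chaperones BAG3 was 1.25 ± 0.12 higher at 44 °C than at 41.5 °C (adjusted p = 1.22e-04) and HSPA1B 0.80 ± 0.08 (adjusted p = 1.60e-04). HSPA1A was 0.68 ± 0.08 higher (adjusted p = 7.30e-04), or 0.12 when the arrays were quantile-normalized once more (adjusted p = 0.527), a setting that also took HSPA1B to 0.43 (adjusted p = 0.00164). HSPB1 (-0.02, adjusted p = 0.918), PDCL3 (0.07, adjusted p = 0.732) and HSPA4L (0.25, adjusted p = 0.193) showed no called difference between the temperatures, with SEs of 0.07, 0.10 and 0.11. HSPH1 was 0.38 ± 0.07 higher at 44 °C (adjusted p = 0.00897), a call lost without IR_HT 41.5 (0.0661), without the irradiated 44 °C array (0.108) and without the intensity trend (0.115).

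Some of the genes that fell after mild heat rose after 44 °C. DUSP10 read 6.61 and 6.72 at 44 °C, 0.85 above 37 °C (adjusted p = 0.00471) and 1.70 ± 0.14 above 41.5 °C (adjusted p = 4.72e-05). DDIT3 read 6.28 and 6.14, 1.21 above 37 °C (adjusted p = 5.61e-04) and 1.87 ± 0.14 above 41.5 °C (adjusted p = 2.98e-05). JUND was 0.77 above 37 °C (adjusted p = 0.00102) and GABARAPL1 0.47 (adjusted p = 0.0271), with direct differences of 1.26 ± 0.10 and 1.00 ± 0.11 (adjusted p = 3.40e-05 and 2.72e-04). BCL6, RASSF9 and MMD lay at 0.18, 0.03 and 0.09 above 37 °C at 44 °C and did not pass there, while at 44 °C each exceeded its level after 41.5 °C, by 1.32 ± 0.12, 1.14 ± 0.12 and 1.05 ± 0.08 (adjusted p from 2.61e-05 to 3.44e-04). HILPDA (-0.82), LINC00173 (-1.43) and MIR582 (-1.08) were lower than at 37 °C at the higher temperature too, and the direct differences did not pass (adjusted p = 0.296, 0.135 and 0.681).

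**Figure D4:**
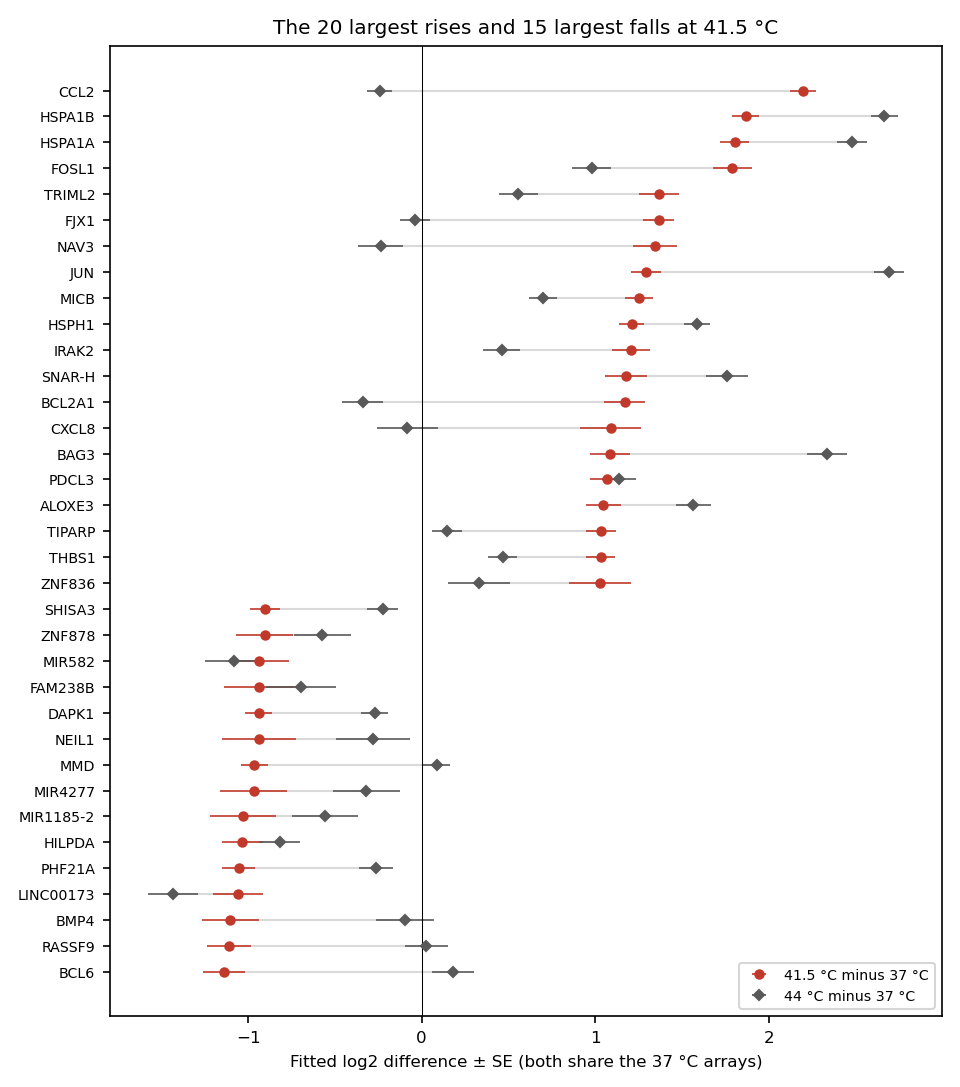
Fitted log2 difference from 37 °C (± SE) at 41.5 °C and at 44 °C for the 20 largest rises and 15 largest falls after mild heat; both differences use the same 37 °C arrays. CCL2 lies at 2.20 and -0.24, JUN at 1.29 and 2.69, and BCL6 at -1.14 and 0.18.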

How the data were processed

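Total RNA of A549 cells (300 ng) was hybridised to 6 Affymetrix arrays, 1 in each group. The authors deposited log2 values, made by RMA in Affymetrix Expression Console 1.1 per the submitters' processing notes; RMA corrects background, quantile-normalizes and summarises probes, which compresses small and saturated differences. Platform annotation gave 1 symbol for 16098 features, all matched to RefSeq, and 37519 stayed unnamed. The feature with the highest mean stood for each gene. limma 3.58.1 (R 4.3.3) fitted temperature as a factor plus a radiation term to all 6 arrays, with eBayes and an intensity trend, leaving 2 residual and 8.06 prior degrees of freedom. The radiation term pairs arrays by dose. With no treatment repeated, the residual is the part of the temperature differences that changes with radiation. Every SE combines it with a variance estimated from genes of similar level. That shared part has the larger weight, 8.06 against 2 degrees of freedom. The code was tested on simulated data. The p-values rest on how these arrays differ from each other, possibly for technical reasons, and their number limits the precision.

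Named genes were the 20 largest rises and 15 largest falls, the 4 highest and lowest members of each of 36 lists (1, of J-domain proteins, held no measured gene), all heat shock factors and NKG2D ligands, called genes that differed at 44 °C, and microRNAs among the largest changes. A few more were named after their values were seen: CNN2, CXCL2, FBXW10B, GAS5, HSPA4, HSPA6, MYC, RELA, RELB, TPM1 and most genes under the other observations. The members and lists were chosen with earlier results of these data known. Alternatives covered scaling, moderation, the filter on dim genes, the feature per gene, the radiation term and each array left out.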

Additional observations from a re-analysis of the deposited data

Results flagged for a closer look

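Among the listed genes, 3 moved one way with heat in the pair without radiation and the other way in the pair with it, by at least 0.3 on the log2 scale in each. MT2A, a metallothionein, differed by 0.54 without radiation and by -0.30 with it, so that the heat difference with radiation minus that without was -0.84. PECAM1, an endothelial adhesion molecule, differed by 0.77 and -0.37 (-1.13 between them). Its signals were dim, 3.02 to 3.79, and below the gene median on every array. TNIP2, which restrains NF-kappaB, differed by -0.40 and 0.59 (0.99 between them). With 1 array in each group the difference between the pairs was not tested. The fitted values did not pass for any of the 3 (0.12, 0.20 and 0.09, adjusted p = 0.813, 0.763 and 0.865 in limma).

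The 37519 features without a gene symbol were not used in the comparisons above. In a fit and adjustment over all 53617 features, 6 of them were called (0.0160%). Of these 5 were higher and 1 lower, with values from 2.95 to -1.20 on the log2 scale. The share is not comparable with that of the 14884 genes, which were fitted and adjusted apart. Without the intensity trend 0 passed.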

How the results depend on the processing

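No named call changed direction under the alternatives run. The 489 calls (325 rises, 164 falls) became 800 (496 and 304) with the 4 arrays at 37 °C and 41.5 °C alone and 9 (8 and 1) without an intensity trend; genes above the median level gave 248 falls. Leaving out each array in turn gave 19 to 800 calls, 16 to 494 rises and 2 to 306 falls; the total was 38 without the control, 19 without IR, 451 without HT 41.5 and 212 without IR_HT 41.5. The causes were not tested. Of the 489 calls, 446 were kept after a further quantile normalization, 469 after median centring and 488 with 4 arrays. The 17 genes 2-fold different in both pairs were 165 at 1.5-fold and 4 at 3-fold. The 6 unnamed features became 0 without the trend. Of 75 named calls 66 were lost without the trend, 4 without the radiation term, 2 after quantile normalization and 1 with robust moderation. The median over all genes moved from -0.0039 to -0.0068 after quantile normalization and to 0.019 after centring. These turned the sign of list medians near 0: quantile normalization those of the BMP and TGF-beta, G1/S and endothelial lists, and centring those of the unfolded protein response, FOXO, base excision repair, clock and endothelial lists.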

Other observations

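The genes in this paragraph were chosen after their values were seen. Among kinases, MAP3K14, the NF-kappaB-inducing kinase of the non-canonical pathway, went from 7.43 and 7.13 to 8.33 and 8.16 (0.96 ± 0.09, adjusted p = 6.52e-04 in limma), and MAP2K3, which activates p38, from 6.27 and 6.07 to 7.12 and 7.11 (0.99 ± 0.10, adjusted p = 0.00118). At 44 °C MAP3K14 differed from 37 °C by 0.02 and MAP2K3 by 0.95. Neither was among the 18 calls made whichever array was left out.

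Small NF90-associated RNAs formed a family of 8 measured genes, of which 4 were called higher (SNAR-H, SNAR-B1, SNAR-C1 and SNAR-D) and 0 lower, with a median of 0.72. The family's median was 0.37 in the pair without radiation and 1.04 in the pair with it. SNAR-B1 read 10.46 and 9.82 at 37 °C and 11.01 and 11.32 at 41.5 °C, and SNAR-C1 read 10.32 and 9.71, then 10.75 and 11.21. Their sequences are near identical, so these signals may not be separable. Of 491 ZNF genes 20 were called higher (4.07%) and 4 lower (0.815%), with a median of 0.06, and of 459 LINC genes 5 were higher (1.09%) and 6 lower (1.31%), beside 2.18% higher and 1.10% lower over all genes. Of 29 called genes with another feature on the array, 5 had one of opposite sign (ADGRL1, BET1L, DNMBP, LINC-PINT and ZNF451).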
